A study of Mus musculus with 8 samples.

Results

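Genes of the tight and adherens junctions were followed in RNA of intestinal epithelial cells from mice, as 31 genes taken by name: 11 claudins and 20 other members, which are junction membrane proteins, plaque scaffolds, polarity proteins, cadherins, catenins and Epcam. They are 31 of the 54139 genes in the deposited tables. The 4 control libraries (WT) carry the genotype Villin-Cre, and the 4 knockout libraries (cKO) carry Rictor Flox with Villin-Cre, so both groups share the Cre driver. The Villin promoter drives Cre in gut epithelium, so other cells of the intestine are not targeted. Rictor is the subunit that sets apart mTOR complex 2, a kinase that activates Akt. The sources used here do not state age, strain, gut segment, the number of floxed copies or whether each library came from its own mouse, so the p-values cover the scatter of these libraries alone, which could be technical.

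A tight junction closes the gap between neighbouring epithelial cells near their apical side. Claudins are its strands: some, such as claudin-2 and claudin-15, form channels for small cations, and others, such as claudin-3, make the barrier tighter. Occludin and the scaffold ZO-1 (Tjp1) belong to the same structure, ZO-1 tying the strands to actin, while E-cadherin (Cdh1) and the catenins form the adherens junction beneath it.

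None of the 28 members tested passed the threshold of an adjusted p of 0.05 with edgeR, DESeq2 or limma. Ocln and Tjp1 were lower in every cKO library than in any WT library, at 82.8% and 81.0% of WT. Cldn23 had the lowest point estimate, at 69.35% of WT, with 1 cKO library inside the WT range. The 4 abundant claudins (Cldn7, Cldn15, Cldn3 and Cldn2), the cadherins, the catenins and Epcam overlapped between the groups. With edgeR's quasi-likelihood test, 0 of the 28 members tested passed after Benjamini-Hochberg adjustment over all genes, against 0.0136% of all 14701 genes tested, and 0 did so with DESeq2 or limma. At an unadjusted p under 0.05, edgeR had 2 members (7.14%), Ocln and Tjp1, both lower, against 3.9% of all genes in either direction and 2.07% lower. In DESeq2 there were 3 at that level (4.15% of all genes) and in limma on FPKM 3 (3.77% to 4.1% of all genes), with Cldn23 added. The groups did not overlap for the same 2 members, against 1.8% of all genes not overlapping and lower in cKO. With 28 members, these shares correspond to about 1 gene or fewer.

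The 5′ ends of 3 genes, chosen with these results known, are shown because Ocln and Tjp1 were the members with separate groups and Cldn2 had the highest estimate. Each run is 300 bases on build GRCm38.p6, from 250 before to 50 after a RefSeq start, printed 5′ to 3′ along the gene. Capitals mark matches, on either strand, to GGGCGG (GC box), CACCTG (an E-box that Snail can bind), TTTATG (the core bound by CDX factors) or TATAAA (the TATA box). The core bound by FoxO factors, GTAAACA, was searched as well. Ocln lies at chr13:100552669-100552968 on the minus strand, Tjp1 at chr7:65371195-65371494 on the minus strand, a start inside the span of the deposited gene, and Cldn2 at chrX:139800558-139800857 on the plus strand.
Ocln: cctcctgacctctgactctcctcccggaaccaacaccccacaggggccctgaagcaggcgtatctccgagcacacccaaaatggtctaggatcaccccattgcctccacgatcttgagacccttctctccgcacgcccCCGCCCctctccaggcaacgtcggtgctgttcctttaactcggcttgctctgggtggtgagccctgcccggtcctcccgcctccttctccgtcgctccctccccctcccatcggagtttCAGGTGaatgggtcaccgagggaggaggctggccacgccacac
Tjp1: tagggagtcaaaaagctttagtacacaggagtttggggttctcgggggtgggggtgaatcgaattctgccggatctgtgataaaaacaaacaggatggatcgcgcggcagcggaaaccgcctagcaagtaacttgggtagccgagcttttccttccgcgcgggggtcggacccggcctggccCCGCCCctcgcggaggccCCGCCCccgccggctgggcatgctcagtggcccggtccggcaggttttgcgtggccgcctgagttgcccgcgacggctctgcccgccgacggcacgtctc
Cldn2: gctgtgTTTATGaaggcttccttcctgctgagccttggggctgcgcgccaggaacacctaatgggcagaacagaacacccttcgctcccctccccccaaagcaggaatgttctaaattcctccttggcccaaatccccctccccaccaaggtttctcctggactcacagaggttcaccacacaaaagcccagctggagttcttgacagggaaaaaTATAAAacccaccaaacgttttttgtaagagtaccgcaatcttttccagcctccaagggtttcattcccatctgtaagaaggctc
The Ocln run held 1 GC box and 1 E-box in a GC content of 64.0%, and the Tjp1 run held 2 GC boxes at 65.3%. The Cldn2 run had 51.3% GC with a CDX core and a TATA box. The median GC content of all 27025 promoters was 52.7%. Of the 31 members, 25 had such a run, and a GC box was in 72.0% of these against 35.9% of all 27025 promoters. The E-box was in 36.0% against 20.0%, the CDX core in 8.0% against 12.1% and the TATA box in 8.0% against 14.2%. The FoxO core was in 0 of the 25 against 3.5% of all promoters. The shares were not adjusted for GC content, and the promoters were not limited to genes expressed here. These are matches of letters in a short window and show no binding.

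Values below are CPM, a gene's counts scaled to a common library size with TMM factors, and fold changes are cKO over WT on the log2 scale with a standard error (SE) from edgeR. Levels of different genes are compared only in FPKM, the authors' value per length. The WT libraries held 15982538 to 18708335 counts and the cKO libraries 15110451 to 18351748. Rictor itself was at 41.7, 42.4, 57.3 and 51.4 CPM in WT libraries 1 to 4 and at 30.45, 39.6, 20.8 and 40.6 CPM in cKO libraries 1 to 4. Every cKO library lay below every WT library, at -0.55 ± 0.20 on the log2 scale (edgeR unadjusted p = 0.019, adjusted 0.921), or 68.1% of WT. The Rictor estimate was -0.39 without cKO library 3 (edgeR unadjusted p = 0.0268) and -0.29 without both libraries numbered 3 (edgeR unadjusted p = 0.0620). With sample quality weights in limma it was -0.25 (unadjusted p = 0.0786). With library trends on transcript GC content and length removed it was -0.41 (edgeR unadjusted p = 0.01165). Reads from exons outside the deleted part also count towards Rictor, and their part in the remaining level was not tested. Epithelial identity was clear, with Epcam at 722 to 840 FPKM and Vil1 at a mean of 404 FPKM. Libraries 3 stood apart in both groups: cKO library 3 was the highest or lowest of the 8 for 52.9% of all genes tested and for 53.6% of the members, and WT library 3 for 34.8% and 53.6%. For the members in WT library 3 this was mainly on the high side, with 14 of 28 at their highest value and 1 at its lowest. Of all genes tested, 17.2% were at their highest in that library and 17.6% at their lowest.

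Occludin (Ocln, ENSMUSG00000021638, chromosome 13, 100496507 to 100552718, minus strand), a membrane protein of the tight junction strand, was at 177.5, 175.3, 189.4 and 175.7 CPM in WT libraries 1 to 4. In cKO libraries 1 to 4 it was at 155.1, 155.0, 132.8 and 151.6 CPM. The WT values lay within a narrow band with library 3 above the others, and all cKO values lay below them, with library 3 lowest. The means were 179.5 ± 6.67 and 149 ± 10.7 CPM (SD, n = 4 each), a log2 fold change of -0.27 ± 0.10 (SE) and a level of 82.8% of WT with a 95% interval of 71.5 to 95.9. The edgeR p was 0.01645 unadjusted and 0.921 adjusted. As a share of Epcam CPM in the same library, a ratio chosen after the values were seen, Ocln was at 10.4% to 11.2% in WT and 8.62% to 10.35% in cKO, still without overlap. With library trends on transcript GC content and length removed, the log2 fold change was -0.15 ± 0.08 (edgeR unadjusted p = 0.0971). In bulk RNA, fewer cells that express a gene and less RNA of it per cell cannot be told apart.

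ZO-1 (Tjp1, ENSMUSG00000030516, chromosome 7, 65296165 to 65527781, minus strand) was at 161.9, 157.1, 178.3 and 175.0 CPM in WT libraries 1 to 4 and at 126.5, 153.5, 110.3 and 154.5 CPM in cKO libraries 1 to 4. The groups did not overlap, but cKO libraries 2 and 4 lay just under the lowest WT library, and cKO libraries 1 and 3 carried most of the difference. Its log2 fold change was -0.30 ± 0.13 (SE), or 81.0% of WT (95% interval 66.9 to 98.1), with an edgeR p of 0.0338 unadjusted and 0.921 adjusted. Without cKO library 3 it was -0.21 (edgeR unadjusted p = 0.0524), without both libraries numbered 3 -0.19 (edgeR unadjusted p = 0.0922) and with sample quality weights in limma -0.15 (unadjusted p = 0.111), while with the GC and length trends removed it was -0.24 ± 0.10 (edgeR unadjusted p = 0.0283). As a share of Epcam CPM, cKO library 2 (10.2%) lay within the WT range of 9.97% to 10.4%. Cdh1 showed no such order, with cKO library 3 the highest of the 8.

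**Figure D1:**
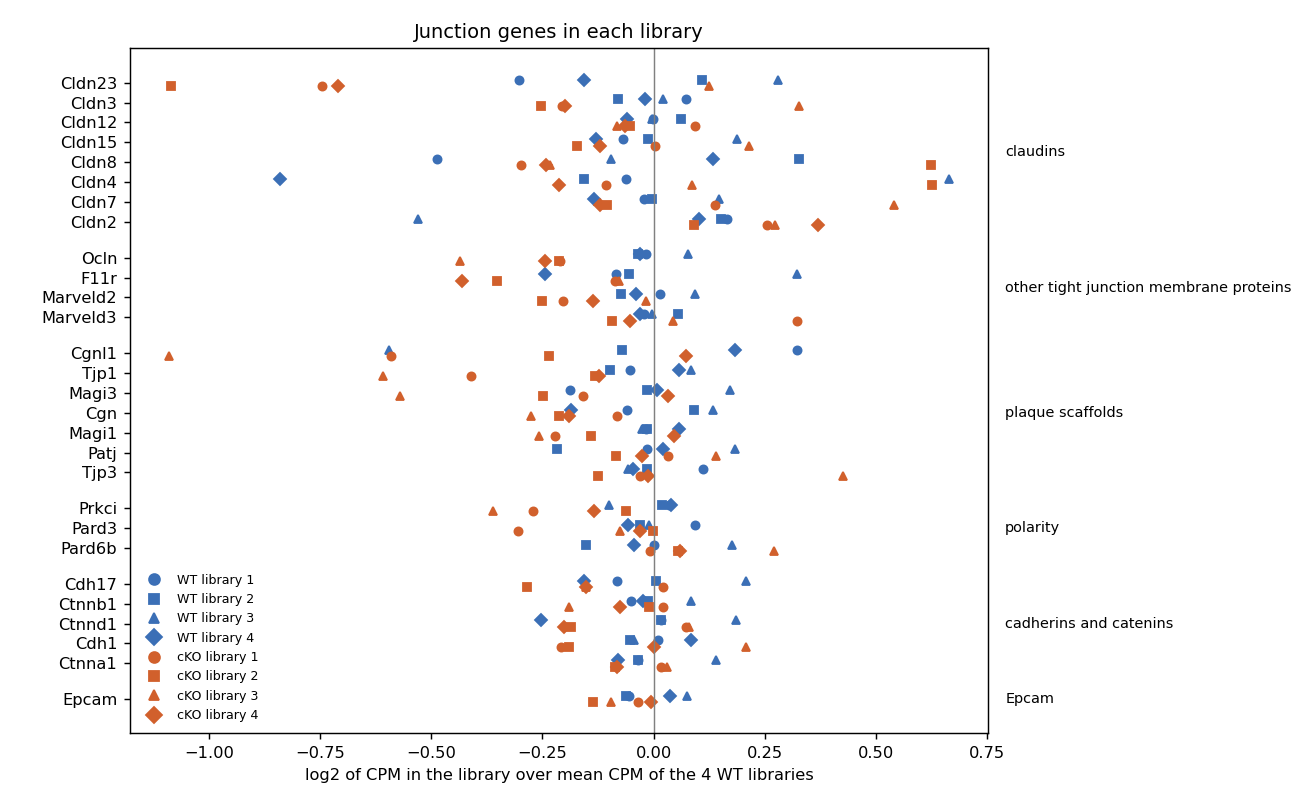
Each point is 1 library, as log2 of its CPM over the mean CPM of the 4 WT libraries (blue, WT; orange, cKO; shapes, library number), for the 28 members tested, grouped by role. Ocln and Tjp1 are the rows with every cKO point left of every WT point, and Cldn23 has 3 cKO points far left and 1 at 24.6 CPM inside the WT range.

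The other tight junction membrane proteins had smaller or less even differences. F11r, the junctional adhesion molecule A, had a log2 fold change of -0.23 ± 0.14, with 118.9 to 176.3 CPM in WT and 104.6 to 133.5 CPM in cKO. It was -0.10 without WT library 3, the highest. Marveld2 (tricellulin), which closes the points where 3 cells meet, was at 52.5 to 58.9 CPM in WT against 46.4 to 54.6 CPM in cKO (log2 fold change -0.15 ± 0.10). Marveld3, a relative of Ocln and Marveld2, was at 0.06 ± 0.11. Of these 4 genes with Ocln included, 3 were lower and 1 higher by point estimate.

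Claudin levels per length differed widely. Cldn7, which binds Epcam and lies mostly on the lateral membrane, was the most abundant in each of the 8 libraries (314 to 503 FPKM). Cldn15, the sodium channel-forming claudin of the gut (225 to 296 FPKM), and Cldn3 (215 to 325 FPKM) overlapped and came next. The highest Cldn3 library, cKO library 3, lay above the lowest Cldn7 library, WT library 4, so that the ranges of these 2 claudins overlapped as well. Cldn2 followed at 51.55 to 96.6 FPKM, then Cldn12 at 15.3 to 17.2 FPKM. Cldn23 (5.66 to 14.6 FPKM) and Cldn4 (4.46 to 12.65 FPKM) overlapped, and Cldn8, known from the colon and kidney, was at 1.07 to 2.29 FPKM. Cldn1, Cldn5 and Cldn18 had 14, 2 and 1 reads over all 8 libraries, did not pass the filter on low counts and were not compared. Cldn5 is the endothelial claudin. The 10 endothelial markers summed to 1.41 to 2.23 FPKM over all libraries, and 4 of them passed the filter. They were led by Esam (403 reads), while Pecam1 and Cdh5 were at means of 0.214 and 0.0247 FPKM. Cldn18 is known from stomach and lung, and of the 10 stomach markers Muc5ac, Tff1 and Sox2 had 0 reads. The 10 summed to 2.10 to 9.48 FPKM over all libraries, led by Gif (mean 3.6 FPKM, 769 reads) and Pgc (1.33 FPKM, 258 reads), which with Atp4a (115 reads) were the 3 that passed the filter.

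**Figure D2:**
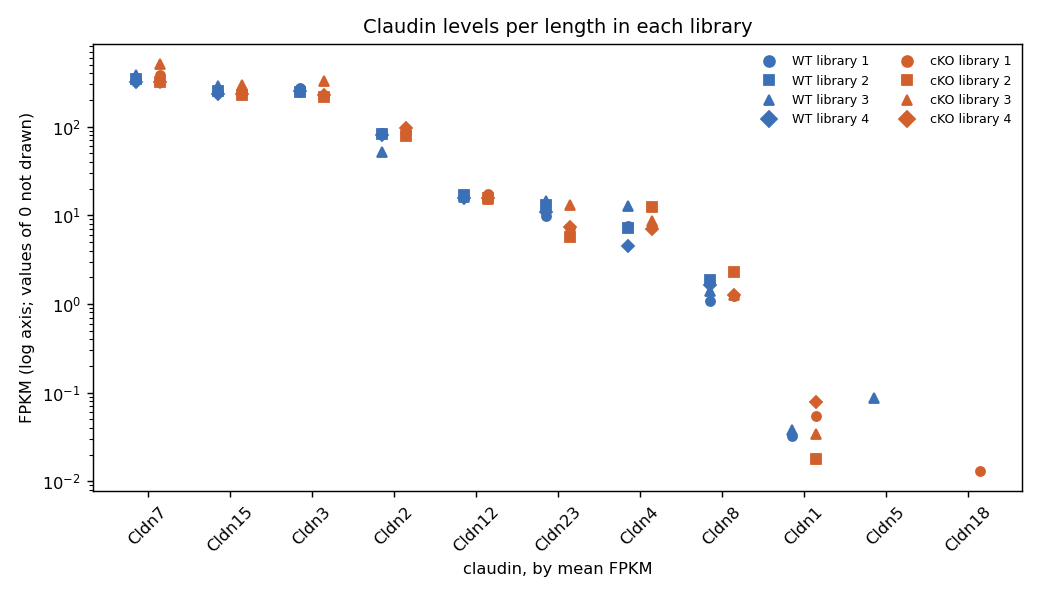
FPKM of each of the 11 claudins in each library on a log axis, ordered by mean, WT in blue and cKO in orange, with values of 0 not drawn. Cldn7, Cldn15 and Cldn3 lie above 200 FPKM and Cldn2 near 80, while Cldn1, Cldn5 and Cldn18 stay under 0.1 FPKM.

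Of the 8 claudins tested, 4 had higher and 4 lower point estimates, with a median log2 fold change of 0.0040 beside 0.0022 for all genes tested. Cldn23, the claudin with the lowest estimate, was at 18.3, 24.3, 27.4 and 20.2 CPM in WT libraries 1 to 4. In cKO libraries 1 to 4 it was at 13.4, 10.6, 24.6 and 13.8 CPM. Libraries 1, 2 and 4 of cKO lay below all WT libraries and library 3 did not. The log2 fold change was -0.53 ± 0.24 (SE), a level of 69.35% of WT (95% interval 47.8 to 100.6), with an edgeR p of 0.0534 unadjusted and 0.921 adjusted. Without cKO library 3 it was -0.84 (edgeR unadjusted p = 0.000704, adjusted p = 0.565). Its adjusted p over all alternatives ran from 0.250 to 0.999.

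Cldn2, the channel of cations and water found mostly in the crypts, had the highest claudin estimate. It was at 280.6, 278.0, 173.4 and 268.7 CPM in WT libraries 1 to 4 and at 298.6, 266.4, 302.5 and 323.5 CPM in cKO libraries 1 to 4. WT library 3 lay far below every other library and carried the difference, with the remaining WT values within 269 to 281 CPM and 1 cKO library under them. Its estimate was 0.25 ± 0.15 on the log2 scale (edgeR adjusted p = 0.921), and 0.11 without WT library 3. That library also had the highest summed enterocyte markers, 13980 FPKM against 5665 to 6697 FPKM in the other WT libraries and 6613 to 9769 FPKM in cKO, and villus tip markers at 1038 FPKM against 317 to 718 FPKM in the other 7. The part of these markers in the Cldn2 difference was not tested.

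Cldn3 was at 345.6, 310.9, 333.2 and 324.3 CPM in WT libraries 1 to 4 and at 284.8, 275.8, 412.3 and 286.1 CPM in cKO libraries 1 to 4. Libraries 1, 2 and 4 of cKO lay below all WT libraries, and cKO library 3 lay above them. The log2 fold change was -0.06 ± 0.14 with all libraries (edgeR adjusted p = 0.956) and -0.22 without cKO library 3 (edgeR unadjusted p = 0.0198, adjusted p = 0.9995). With the GC and length trends removed it was -0.23 ± 0.09 (edgeR unadjusted p = 0.0235, adjusted p = 0.999). Exons of Cldn3 overlap Wbscr25 on the opposite strand, and the treatment of strand in counting is not given in the sources used here.

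Cldn7 was at 669.0, 677.7, 752.6 and 619.0 CPM in WT libraries 1 to 4 and at 747.9, 631.8, 988.2 and 625.2 CPM in cKO libraries 1 to 4. The groups overlapped, cKO library 3 was the highest, and the log2 fold change of 0.14 ± 0.16 was -0.02 without that library. Cldn15 was at 521.4, 541.9, 622.7 and 499.9 CPM in WT libraries 1 to 4 and at 547.5, 485.3, 634.5 and 502.7 CPM in cKO libraries 1 to 4. Library 3 was the highest of either group and the groups overlapped, at -0.01 ± 0.12 with a 95% interval of 82.1% to 120.1% of WT. Cldn12, which has been linked to calcium passage, was at 66.3 to 72.1 CPM in WT and 65.2 to 73.7 CPM in cKO (interval 85.6% to 112.8% of WT). For Cldn4 the interval was 70.1% to 172.8% and for Cldn8 66.0% to 155.4% of WT, so that wide limits remain for these low claudins.

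As shares of the summed FPKM of the 11 claudins, Cldn7 took 35.5% ± 1.17 in WT and 37.6% ± 2.25 in cKO (SD, n = 4 each; exact two-sided permutation p = 0.171), and Cldn3 took 26.65% ± 1.45 and 24.6% ± 1.29 (exact permutation p = 0.114). Cldn15 took 26.2% ± 1.39 and 25.3% ± 1.12 (exact permutation p = 0.457) and Cldn2 7.73% ± 1.82 and 8.98% ± 1.41 (exact permutation p = 0.314). The 4 tests had adjusted values of 0.343 to 0.457, and 4 against 4 cannot give a p under 0.0286. Together these claudins made up 95.6% to 96.9% of the claudin FPKM in each library. The sum itself was 914 to 1030 FPKM in WT and 874 to 1252 FPKM in cKO, highest in cKO library 3. None of the 4 tested shares passed, which does not show that they were equal. The 7 smaller shares were not tested; among them Cldn23 took 1.24% ± 0.185 in WT and 0.813% ± 0.175 in cKO (SD, n = 4 each), with overlapping groups. The Cldn15 difference changed sign, to 0.323 points higher in cKO, without both libraries numbered 3.

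The 20 members that are not claudins had 16 lower and 4 higher point estimates, a median log2 fold change of -0.12 beside 0.0022 for all genes tested, of which 49.5% were lower. Over the processing alternatives 14 to 18 of the 20 were lower. By library, the median deviation of these 20 from their mean over the libraries was 0.013 to 0.144 in WT and -0.095 to -0.037 in cKO (log2 CPM), without overlap. The claudins did not show this, at -0.027 to 0.077 in WT and -0.166 to 0.195 in cKO. By role, only the plaque proteins had no overlap (0.054 to 0.179 in WT, -0.186 to 0.038 in cKO). The other tight junction membrane proteins, the polarity proteins, the adherens junction members and Epcam each overlapped. The 62 other junction genes tested overlapped too (-0.020 to 0.095 in WT, -0.071 to 0.046 in cKO), although the desmosome genes among them did not. No such value was computed over all genes. The deviations are a description of genes listed with results of these libraries known, and carry no test.

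Among the plaque proteins, which link the membrane proteins to actin, 5 of 7 were lower. Cgnl1 (paracingulin) had the lowest estimate of the members other than claudins, with 7.5, 5.7, 4.0 and 6.8 CPM in WT libraries 1 to 4 and 4.0, 5.1, 2.8 and 6.3 CPM in cKO libraries 1 to 4. The groups overlapped widely, and the log2 fold change was -0.40 ± 0.28 (SE) and -0.23 without cKO library 3. Cgn (cingulin) was at 164.2 to 205.0 CPM in WT and 154.3 to 176.6 CPM in cKO, with an estimate of -0.19 ± 0.11. Magi3 and Magi1, scaffolds with PDZ domains, were at -0.22 ± 0.13 and -0.14 ± 0.10, and Magi3 was at -0.06 without both libraries numbered 3. Tjp3 (ZO-3) was at 0.08 ± 0.13 and Patj, of the Crumbs complex, at 0.02 ± 0.11. Tjp3 was at -0.055 without cKO library 3 and -0.0942 with the GC and length trends removed, and Patj at -0.0242 without cKO library 3. Tjp3 was at 300.7 to 338.0 CPM in WT and 286.9 to 310.3 CPM in cKO libraries 1, 2 and 4, but 420.3 CPM in cKO library 3. Exons of Tjp3 overlap Apba3 on the opposite strand.

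Polarity proteins set the apical side of the cell. Prkci, the atypical protein kinase C of the Par complex, was at 121.8, 120.5, 110.9 and 122.2 CPM in WT libraries 1 to 4 and at 98.6, 113.9, 92.6 and 108.3 CPM in cKO libraries 1 to 4. Only cKO library 2 reached into the WT range, above WT library 3. The log2 fold change was -0.20 ± 0.10, with edgeR p-values of 0.0687 unadjusted and 0.921 adjusted, and it was -0.12 with the GC and length trends removed. Its partner Pard6b had the highest estimate outside the claudins, at 34.99, 31.5, 39.55 and 33.94 CPM in WT libraries 1 to 4 and 34.77, 36.33, 42.19 and 36.46 CPM in cKO libraries 1 to 4. The groups overlapped, at 0.10 ± 0.11 on the log2 scale and -0.0019 with those trends removed. Pard3 was at -0.10 ± 0.10.

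All 5 adherens junction members had lower point estimates, with a median log2 fold change of -0.05, and for each of them the groups overlapped. Cdh1 (E-cadherin) was at 1123, 1075, 1082 and 1181 CPM in WT libraries 1 to 4 and at 965, 977, 1287 and 1115 CPM in cKO libraries 1 to 4, with cKO libraries 1 and 2 the lowest and cKO library 3 the highest of the 8. Its log2 fold change was -0.04 ± 0.13 (SE; interval 80.4% to 117.9% of WT), and -0.14 without both libraries numbered 3. Cdh17, the intestinal cadherin known as liver-intestine cadherin, was at 1083, 1152, 1325 and 1029 CPM in WT and 1164, 941, 1033 and 1032 CPM in cKO, at -0.14 ± 0.125 that was -0.06 without WT library 3. The catenins Ctnnb1, Ctnna1 and Ctnnd1, which join cadherin to actin or hold it at the membrane, were at -0.06 ± 0.11, -0.03 ± 0.10 and -0.05 ± 0.12. Epcam, which binds and stabilises claudin-7, was at 1585, 1576, 1734 and 1689 CPM in WT libraries 1 to 4 and at 1606, 1498, 1541 and 1640 CPM in cKO libraries 1 to 4. Its log2 fold change was -0.07 ± 0.11, with an interval of 80.9% to 112.7% of WT. In FPKM Epcam was the most abundant member (mean 780 FPKM), ahead of Cldn7.

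**Figure D3:**
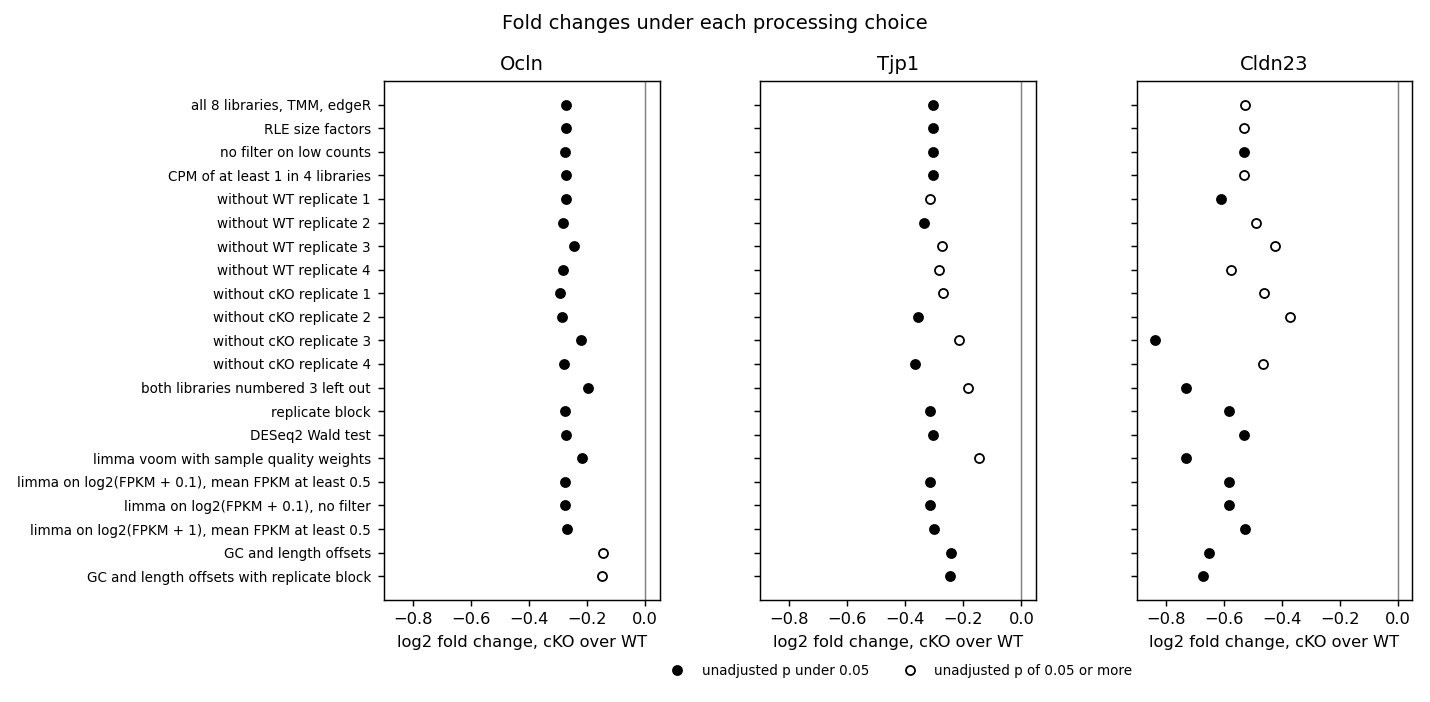
Log2 fold change (cKO over WT) of Ocln, Tjp1 and Cldn23 under each of 21 processing choices, filled where the unadjusted p was under 0.05. All points lie left of 0; Ocln is filled in 19, Tjp1 in 14 and Cldn23 in 12 of the 21.

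The sign of the difference held under all 21 processing choices for 13 of the 20 members with lower estimates and for 1 of the 8 with higher ones, Cldn2. Adjusted p values of Ocln ran from 0.447 to 0.9995 and those of Tjp1 from 0.676 to 0.9995 over these choices.

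The distance of cKO library 3 from the other cKO libraries varied with transcript GC content. Library 3 of cKO over the mean of cKO libraries 1, 2 and 4 was 0.56 (log2) for Cldn7, 0.55 for Cldn3, 0.48 for Tjp3 and 0.96 for Cldn23, whose longest annotated transcripts have 54.8% to 62.7% GC. It was -0.39 for Tjp1, -0.45 for Magi3 and -0.21 for Ocln, with 46.8%, 47.7% and 42% GC. The lowest value of the 28 members was that of Cgnl1, -0.86 at 52.7% GC. Cldn4 (56.8% GC) and Cgn (54.7% GC) went the other way from the high-GC genes above, at -0.067 and -0.116. Across the 28 members, Spearman's rho of this deviation was 0.59 with GC content and -0.53 with transcript length, and across 14457 genes tested it was 0.58 and -0.15. These correlations run over genes of the same libraries and are descriptions. The claudins with high GC have short transcripts, of 1259 to 1902 bases for Cldn3, Cldn7, Cldn15, Cldn4 and Cldn23, while Tjp1 has 7049 bases.

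**Figure D4:**
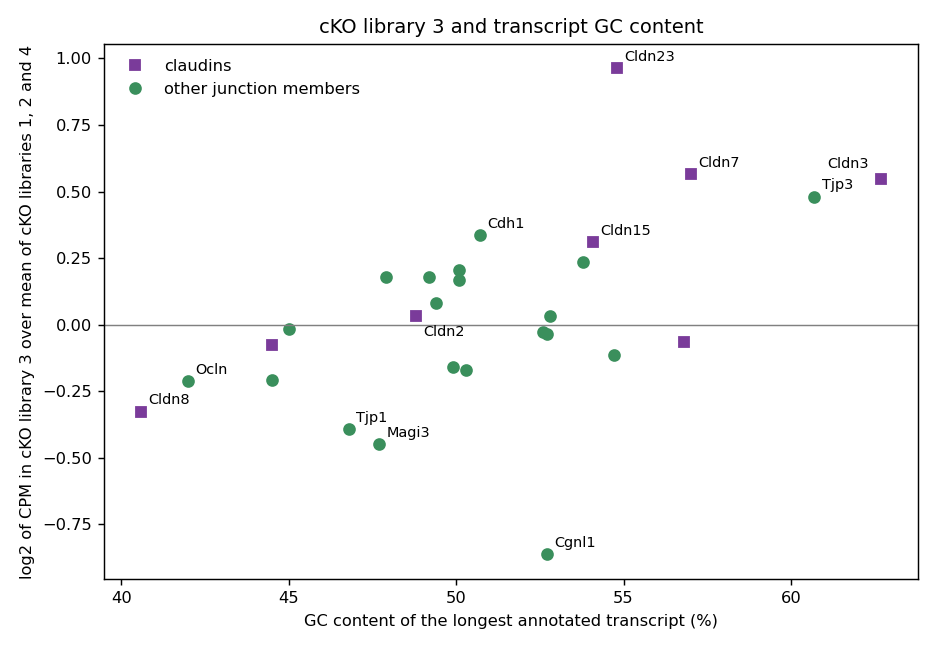
Each point is 1 of the 28 members, with the GC content of its longest annotated transcript on the horizontal axis and, on the vertical axis, log2 of its CPM in cKO library 3 over the mean of cKO libraries 1, 2 and 4 (purple squares, claudins; green circles, others). Cldn3 and Tjp3, at the highest GC, lie above 0, while Cldn4 and Cgn, also at high GC, lie slightly below it with Ocln, Tjp1 and Magi3 further down. Cgnl1, at 52.7% GC, is the lowest point.

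The wider set of junction genes, listed by name, held 96 further genes, of which 95 were in the tables and 62 were tested, 25 higher and 37 lower by point estimate, with a median log2 fold change of -0.03. At an unadjusted edgeR p under 0.05 there were 6 (9.68%, against 3.9% of all genes), 2 higher and 4 lower, and 0 passed after adjustment. The groups did not overlap for 7 of the 62 (11.3%) against 3.21% of all genes. Those 7 were Amotl1, Epb41l5, Dsp, Dsc2, Evpl, Esam (0.40 ± 0.23), also a marker of endothelium, and Lin7c (-0.36 ± 0.18). Among 29 other tight junction genes tested, 15 were higher and 14 lower, and among 23 other adherens junction genes 9 and 14. Of 16 other claudin-named genes listed, only the claudin domain gene Cldnd1 had enough counts to be tested, at -0.03 ± 0.14.

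Epb41l5, a FERM-domain protein that binds Crumbs and takes part in cadherin turnover, was at 25.4, 25.7, 24.9 and 24.5 CPM in WT libraries 1 to 4. In cKO libraries 1 to 4 it was at 17.4, 15.6, 17.8 and 19.6 CPM. Both groups were tight and stood well apart, at -0.52 ± 0.11 on the log2 scale. Its edgeR adjusted p was 0.509 and that of the DESeq2 Wald test 0.01825, and no other alternative brought it past the threshold. With the GC and length trends removed it was -0.31 (edgeR adjusted p = 0.999). Amotl1, an angiomotin-like protein of tight junctions, was at 1.71 to 3.34 CPM in WT and 3.85 to 6.57 CPM in cKO, without overlap, at 1.07 ± 0.27 (edgeR adjusted p = 0.7265). Wnk4, a kinase that can phosphorylate claudins, was at 0.47 ± 0.20 with overlapping groups, and at 0.28 with the trends removed and the replicate block.

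Desmosome genes, which anchor keratin filaments at cell contacts, were lower for 8 of the 9 tested, with a median log2 fold change of -0.17. Dsp (desmoplakin), which ties the desmosome to keratin, was at 705.0, 663.3, 736.4 and 612.4 CPM in WT libraries 1 to 4 and at 462.6, 610.6, 549.0 and 578.0 CPM in cKO libraries 1 to 4. These groups did not overlap, although the highest cKO library lay within 2 CPM of the lowest WT library, at -0.30 ± 0.12 on the log2 scale (edgeR adjusted p = 0.921). The desmosomal cadherin Dsc2 was at 245.1 to 282.9 CPM in WT and 185.7 to 230.5 CPM in cKO (-0.27 ± 0.11, and -0.14 with the trends removed), and the plakin Evpl at 26.9 to 41.0 CPM and 19.1 to 26.7 CPM (-0.49 ± 0.16), also without overlap and with an edgeR adjusted p of 0.921 each. Pkp3 was the exception, at 0.21 ± 0.13. Summed over the listed desmosome genes, levels were 290 to 325 FPKM in WT and 258 to 277 FPKM in cKO.

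**Figure D5:**
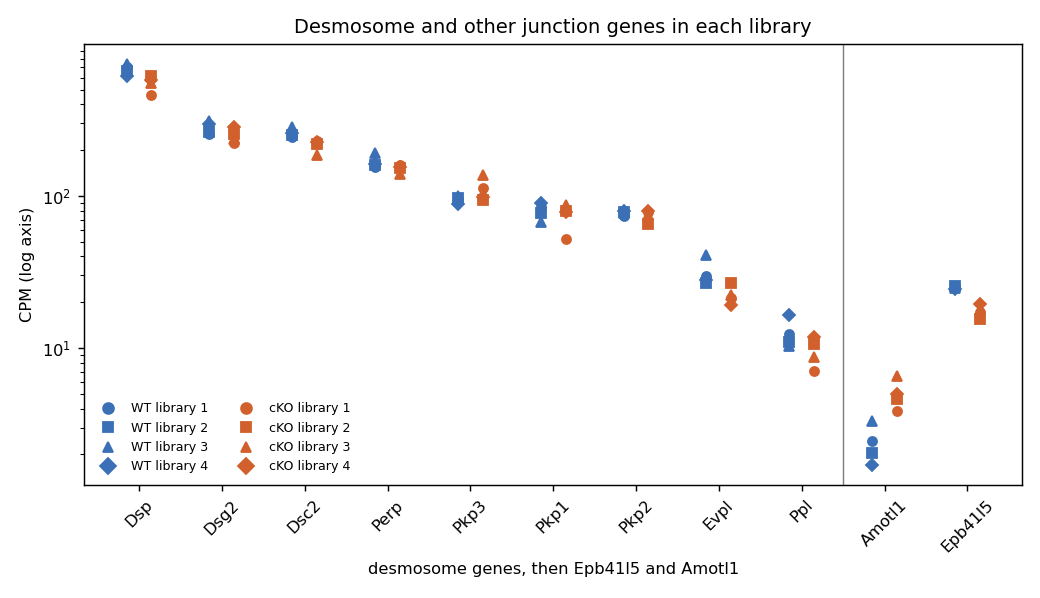
CPM on a log axis for the 9 desmosome genes tested and, right of the line, Amotl1 and Epb41l5, in each library (WT in blue, cKO in orange). Dsp, Dsc2, Evpl, Epb41l5 and Amotl1 have no overlap between the groups.

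Of the 13 tested markers of T cells and intraepithelial lymphocytes, 12 had higher and 1 a lower point estimate, where 49.5% of all genes tested were lower. Of these 13, 0 had an unadjusted edgeR p under 0.05, and the groups overlapped for each. These markers summed to 128 to 439 FPKM in WT and 161 to 560 FPKM in cKO, highest in cKO library 3. Their part in the lower Ocln and Tjp1 of that library was not tested. Ocln was at -0.22 and Tjp1 at -0.21 without that library. Crypt and proliferation markers summed to 1312 to 1558 FPKM in WT and 1078 to 1437 FPKM in cKO, lowest in cKO library 1. By point estimate, however, 9 of these 15 markers were higher and 6 lower, with a median log2 fold change of 0.04. Endothelial markers summed to 1.41 to 2.23 FPKM and fibroblast and smooth muscle markers to 0.591 to 1.04 FPKM over all libraries. Reads over the 8 libraries ran from 1 (Emcn) to 403 (Esam) for the endothelial markers. For the fibroblast and smooth muscle markers they ran from 1 (Lum) to 255 (Pdgfrb). Of 8 Paneth markers, 5 had higher and 3 lower estimates, and 2 were lower at an unadjusted edgeR p under 0.05, Ang4 (-0.82 ± 0.22) and Lyz1 (-0.45 ± 0.20). Of 8 goblet markers, 4 had higher and 4 lower estimates, and Clca1 was lower at that level (-0.46 ± 0.20). None of these 3 passed after adjustment, and their groups overlapped. They were 25% of the Paneth and 12.5% of the goblet markers, against 2.07% of all genes lower at that level. The 4 endothelial markers tested had 3 higher estimates and 1 lower (-0.82), the lower one also at an unadjusted edgeR p under 0.05 without passing after adjustment. Ileum markers summed to 215 to 473 FPKM over all libraries, mostly from Mep1b (mean 178 FPKM) and Slc51a (64.4 FPKM). Fabp6 was at 2.1 FPKM and Slc10a2 at 0.281 FPKM, and Gp2 had 1 read. The filter on low counts was passed by 7 of the 9. Colon markers summed to 41.1 to 60.5 FPKM.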

How the data were processed

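RNA from 4 WT and 4 cKO libraries was sequenced on an Illumina NovaSeq and processed with Hisat2 and Stringtie, per the labels' design text. The sources used here do not give versions, build, counting program or strand setting. The authors deposited whole-number counts per gene, with no normalization, and FPKM, scaled by gene length and library total. Of the deposited identifiers found in GENCODE M21, 96.9% have the same position there (28 of the 31 members), so coordinates are on GRCm38. The name Magi1 stands on 2 rows, so that 32 rows carry a member's name. The row whose identifier M21 calls Cnksr3 was not counted as a member.

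Counts were tested with edgeR 4.0.16 (R 4.3.3; TMM, default filter, robust quasi-likelihood F-test, genotype as the single term, two-sided) over all 14701 genes kept, with Benjamini-Hochberg adjustment at 0.05. Alternatives were RLE factors, other filters, leaving out libraries, the replicate number as a block, DESeq2 1.42.0, limma 3.58.1 (voom with quality weights, and log2(FPKM + 0.1) or log2(FPKM + 1)), and offsets that remove each library's spline trend on transcript GC content and length (98.3% of genes had a value). The edgeR step was tested on simulated data. No library pair of a group agreed within sampling noise (lowest chi-square per degree of freedom 9.84).

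Members and lists were chosen with earlier results of these data known. Values of every library are given for members at unadjusted p under 0.05 or without overlap, the highest and lowest estimates of each class, and the 3 claudins and 3 others of highest FPKM; Prkci was added after its values were seen. Other junction genes are named at unadjusted p under 0.05; Cldnd1, Pkp3, Esam, Lin7c and the single cell type markers were named after their values were seen. Intervals are at 95%.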

Additional observations from a re-analysis of the deposited data

Results flagged for a closer look

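For 10 of 78 sets of 4 values, the gap between an end value and its neighbour took up most of the range of the set (Dixon's 95% limit). That limit is passed by about 1 in 20 sets of independent normal values. These sets are not independent, since they share the same 8 libraries and some genes count both as CPM and as a share. The count was therefore not compared with chance, and it was not computed over all genes. Most of the 10 lay in a library numbered 3.

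Ocln was at 189 CPM in WT library 3 against 175 to 178 in the other WT libraries, a gap of 0.844 of the range, and at 133 CPM in cKO library 3 against 152 to 155, a gap of 0.843. Cldn2 was at 173 CPM in WT library 3 against 269 to 281, and its share of claudin FPKM was 5.01% there against 8.59% to 8.74%. Cldn3 was at 412 CPM in cKO library 3 against 276 to 286. The Cldn15 share of claudin FPKM was 23.7% in cKO library 3 against 25.7% to 26.0%. Prkci was at 111 CPM in WT library 3 against 120 to 122. Cldn8 was at 5.49 CPM in cKO library 2 against 2.90 to 3.03, Cldn12 at 73.7 CPM in cKO library 1 against 65.2 to 66.6, and Magi1 at 77.8 CPM in WT library 4 against 73.6 to 74.1.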

How the results depend on the processing

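No member passed the adjusted threshold under any alternative (edgeR, DESeq2 or limma). The count at an unadjusted p under 0.05 was 2 with all libraries and 1 to 4 when 1 library was left out. The shares of all genes at that level were 3.9% and 2.84% to 5.39%. Without both libraries numbered 3 the count was 4 (5.05% of all genes), Ocln, Cldn3, Cldn23 and Prkci. With limma quality weights it was 5 (8.14% of all genes), Ocln, F11r, Cldn3, Cldn23 and Prkci. GC and length offsets gave 5 (3.78% of all genes), Marveld2, Cldn3, Cldn23, Tjp1 and Cgn. Those offsets with the replicate block gave 4 (3.82% of all genes), F11r, Cldn3, Cldn23 and Tjp1. With the replicate block alone the count was 3 (3.77% of all genes), with Cldn23 added to Ocln and Tjp1 (-0.58, edgeR unadjusted p = 0.01353, adjusted 0.891), and 0 members passed the threshold. The replicate numbers were not taken as pairs, since the labels name no shared source and the correlation of deviations was over 0.1 for numbers 2, 3 and 4 (0.103, 0.139 and 0.161) but not for number 1 (-0.132); libraries 3 and 4, but not 1 and 2, correlated best with their own number. The median of the other junction genes was -0.0832 with GC and length offsets and the replicate block, against -0.0314. The cause of these shifts was not tested. The Cldn15 share difference (cKO minus WT) turned from -0.88 to 0.323 points without both libraries numbered 3. Small estimates changed sign. With 1 library left out, Cldn7 ran from -0.0237 (without cKO library 3) to 0.2218, Cldn15 from -0.0942 to 0.0582, Cldn3 from -0.2187 to 0.006 (without cKO library 2) and Cdh1 from -0.13 to 0.018. Cldn15 was above 0 without WT library 3, cKO library 2 (0.0481) or cKO library 4 (0.0296), and Cdh1 without cKO library 1 (0.0143) or 2. Cldn7 was at -0.025 with quality weights and Pard6b at -0.0019 with offsets. Over all genes, edgeR called 2 and DESeq2 41. Depth limits Cldn1, Cldn5 and Cldn18, which were not compared.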

Other observations

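The second row named Magi1 in the deposited table, which is Cnksr3 by its identifier, had CPM values of 24.18, 26.25, 33.06 and 23.85 in WT libraries 1 to 4 and 28.61, 25.82, 28.82 and 34.6 in cKO libraries 1 to 4.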
